A study of Gallus gallus with 6 samples.

Results

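MSI2 and RBM24 code for RNA-binding proteins. The methylation of their DNA mostly differed in opposite directions between the epithelial and the fiber cells of the embryonic chick lens. MSI2 carried 29 differentially methylated regions (DMRs), of which 26 were more methylated in fiber cells. RBM24 carried 4, all of them less methylated in fiber cells. Of all DMRs 86.6% were more methylated in fiber cells, so MSI2 followed the common direction and RBM24 the rarer one. These 33 DMRs were found by taking, from the 7621 DMRs that the authors called across the genome, every region whose gene symbol or alternate gene symbol was one of these names. Both genes were chosen by the direction of their mCG changes, which contrast, so counts of directions, levels and changes are given here as a description, with no test.

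A DMR is a run of neighbouring CG sites (a cytosine followed by a guanine) at which the authors found different methylation in both cell types. Its mCG level is the share of DNA copies methylated at those sites. Lenses were dissected from White Leghorn embryos at embryonic day 13 into the epithelial layer, central and equatorial, and the fiber mass, peripheral and central. The 6 samples were 3 replicates of lens epithelial cells and 3 replicates of lens fiber cells, each pooled from 25 lenses, with no treatment or genetic change. For each DMR the table gives a level per cell type, the authors' mean over the 3 replicates. Single replicates and read depth were not analysed here, so the spread over replicates is unknown for every value below. Expression was not analysed either, so the purity of the dissected cells could not be checked from markers. A moderate change in all cells and a large change in some of them cannot be told apart.

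RNA-binding proteins attach to transcripts and set how these are spliced, how long they last and how often they are translated. MSI2 belongs to the Musashi family, known in mammals from stem and progenitor cells, where it can hold back translation of target transcripts such as that of NUMB, an inhibitor of Notch signalling. RBM24 regulates splicing and transcript stability in muscle and heart. In zebrafish it is needed for crystallins to accumulate in lens fibers, and in mouse it binds the transcript of SOX2, a transcription factor of the early eye. Methylation within introns can lie on regulatory sequence as well as on sequence of no known function, and the table does not separate these.

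The sequences below are candidate binding sites inside 4 of the DMRs. They were picked by gene, factor and strand from the part of the study's list of motif matches that was used here. The study listed matches separately for demethylated regions of genes higher in fiber cells and for methylated regions of genes higher in epithelial cells. Each list used the motifs enriched in its own regions, so the factors for RBM24 and MSI2 were not drawn from a common set. Other matches in these DMRs may differ from those shown. The sequences are shown because mCG can only be carried by a CG within them. Capitals mark each CG, positions refer to galGal6, and each sequence is written 5′ to 3′ on the strand named.
RBM24, site for MAFG, plus strand, chr2:61929769-61929789: tgtgtgctgagtctgcatagc
RBM24, site for SOX2, plus strand, chr2:61929679-61929686: cctttgtc
MSI2, site for MYC, minus strand, chr19:8946546-8946557: agccaCGtgctg
MSI2, site for CLOCK, minus strand, chr19:8998162-8998171: aacaCGtgtc
MSI2, site for LEF1, minus strand, chr19:8966335-8966349: taagatcaaagcaat

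The MYC and CLOCK sites, both in gains of MSI2, each held 1 CG. The MAFG and SOX2 sites, which lie 351 and 261 bp from the start of the same DMR of RBM24, held none, nor did the LEF1 site of MSI2. Whether a site holds a CG depends on the motif of its factor, and the factors were picked. These counts therefore do not describe the genes. For the sites without a CG, the change given is therefore that of CG sites around them. For the MYC and CLOCK sites it is a mean over the 74 and 36 CG sites listed for their DMRs. The level of the CG inside either site was not given. A match in sequence does not show that a factor binds.

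RBM24 (ENSGALG00000012712) lies on chromosome 2. Its first DMR, in an intron from 61924349 to 61924566, had an mCG level of 64.1% in epithelial and 26.8% in fiber cells. The second, also intronic, from 61925079 to 61925241, had the highest epithelial level of the 4, with 78.0% against 48.8%. At the third, the intronic DMR that holds the MAFG and SOX2 sites (61929418 to 61929927), the level was 46.6% in epithelial and 22.3% in fiber cells. The fourth was annotated to an exon, from 61930398 to 61930675, with 67.3% and 53.3%. All 4 thus started from high or intermediate methylation and kept a part of it.

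The changes, fiber minus epithelial level, were -37.3, -29.2, -24.3 and -14.0 percentage points in that order, with a mean of -26.2. Over all losses the mean was -28.6 points. In the first DMR the fiber level was 41.8% of the epithelial level, and in the exon 79.2%. The exonic DMR was also the most CG-dense, with 24.1 listed sites per 100 bp, while the third had 3.53, the lowest density of all 33. With 67 of the 121 sites listed for the gene, the exon pulled the mean change to -21.5 points when sites rather than DMRs were weighted equally. The 3 intronic DMRs alone averaged -30.3 points. An error can be approached from the authors' area statistic, which sums a test statistic over the CG sites of a DMR: the change divided by the statistic per site approximates the standard error at 1 CG site. It was 3.30, 4.27, 4.41 and 2.47 points for the 4 DMRs, and is not the error of a mean over the DMR.

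**Figure D1:**
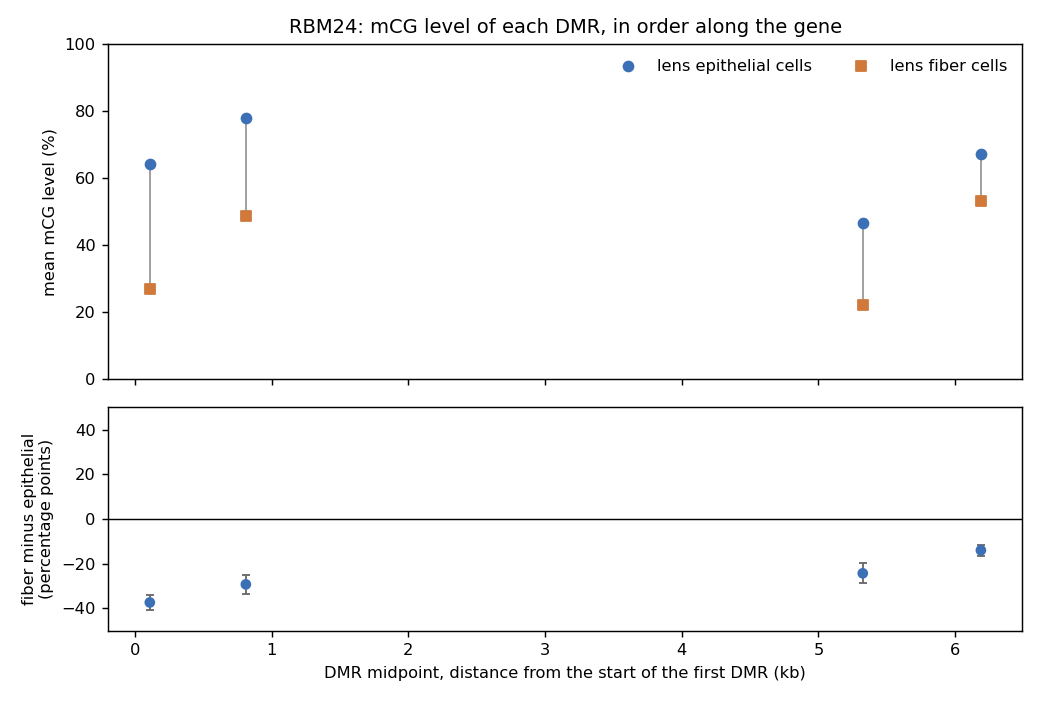
Mean mCG level in percent (top) of epithelial cells (circles) and fiber cells (squares) and its change in percentage points (bottom) for the 4 DMRs of RBM24, by distance in kb from the start of the first DMR. Bars are the approximate standard error at a single CG site. All 4 changes lie below 0, from -37.3 to -14.0 points.

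Losses were the rarer direction, at 13.4% of all DMRs and 16.2% of those on chromosome 2, where gains made up 83.8%. A change of at least 20 points was seen in 3 of the 4 DMRs of RBM24 and in 16 of the 29 of MSI2, beside 59.5% of all DMRs. The share was 75.1% among all losses and 57.1% among all gains. The 4 losses of RBM24 sat within 6.33 kb, as 2 pairs with gaps of 512 and 470 bp, and no other DMR lay between them. On the low-coordinate side the nearest DMR was a gain of 24.4 points, 29.7 kb away, in the promoter of a long non-coding gene (ENSGALG00000053125). On the other side it was a gain of 34.5 points in a repeat, 202 kb away. Within 500 kb on either side, 10 of 11 further DMRs were gains, 6 of them in ATXN1, beside the 83.8% of chromosome 2. The exception was an intronic loss of -39.0 points in the same long non-coding gene. None of the 4 DMRs of RBM24 was annotated to a repeat or to the promoter. Whether they touch a CpG island (a stretch rich in CG sites) or its flank, the island shore, cannot be read from the table, since none of the 452 DMRs of chromosome 2 carries either annotation and the same holds for 17 of the 34 chromosomes.

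MSI2 (ENSGALG00000005567) lies on chromosome 19, where its DMRs spread over 169 kb, from 8932654 to 9102089. All 29 were annotated to introns of MSI2, 2 of these also to an exon, and none to its promoter or untranslated regions. Gains made up 89.7% of them, close to the 86.6% of all DMRs and the 87.2% of chromosome 19. By number of DMRs MSI2 ranked high: 4 of 3888 genes with a DMR had more, against a median of 1. The number was not set against gene length. The DMRs of MSI2 covered 4.89% of their span, and those of RBM24 18.5% of theirs. Each span runs from the first to the last DMR, so these shares do not give the coverage of the genes.

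In the 26 gains the epithelial level ranged from 6.68% to 58.3% with a median of 24.8%, and the fiber level from 18.4% to 77.4% with a median of 52.9%. Fiber cells reached 50% or more in 14 of these DMRs, epithelial cells in 2. Over all gains the median level was 27.6% in epithelial and 54.2% in fiber cells. In MSI2 the change ran from 11.6 to 33.6 percentage points with a median of 21.9, beside 21.4 over all gains. The fiber level was more than 200% of the epithelial level in 10 of the 26. The median of this proportion was 182%, beside 188% over all gains. Approximate single-site standard errors in the 33 DMRs of both genes ran from 2.17 to 4.41 points, and each change was at least 4.54 times its own. By construction this ratio is the authors' statistic per site, by which regions were selected, so it gives no separate support. Over all DMRs its minimum was 3.52.

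**Figure D2:**
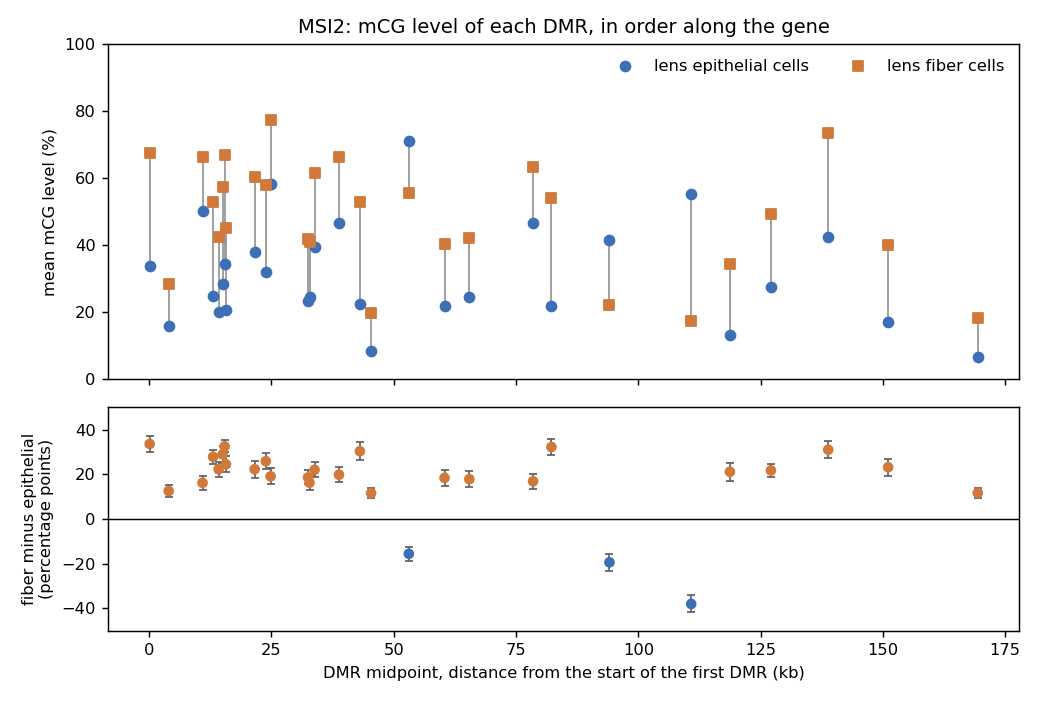
Mean mCG level in percent (top) of epithelial cells (circles) and fiber cells (squares) and its change in percentage points (bottom) for the 29 DMRs of MSI2, by distance in kb from the start of the first DMR. Bars are the approximate standard error at a single CG site. The first 17 DMRs are all gains, and 3 losses stand among the rest.

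Gains were crowded at the low-coordinate end of the span of MSI2 DMRs, the side of the neighbouring gene CUEDC1. With the span cut into 4 equal stretches of 42.4 kb, the first held 15 DMRs, all gains, the second 7, the third 3 and the fourth 4. The tightest group was 5 gains within 3064 bp, from 8945377 to 8948440, with gaps of 52 to 299 bp. Their epithelial levels were 20.2% to 34.4% and their fiber levels 42.4% to 66.9%. The gain with the MYC site, 947 bp long and with 74 listed CG sites, was the longest of the gene and rose from 20.2% to 42.4% (it is also the only DMR of the gene annotated to a repeat). A second group of 3 gains, from 8964982 to 8966775, went from between 23.3% and 39.5% to between 40.8% and 61.5%, and includes the LEF1 site. DMRs this close share sequence context and smoothing, and are not independent measurements.

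Individual gains differed more in level than in change, with a standard deviation over the 26 DMRs of 13.0 points for the epithelial level, 15.6 for the fiber level and 6.50 for the change. Over all gains levels likewise varied more than changes, with 20.0, 19.8 and 7.79 points. The first DMR, in an intron from 8932654 to 8932858, had the largest gain of the gene, from 33.9% to 67.5%. A DMR from 8957317 to 8957638 reached the highest fiber level of the 33, with 58.3% and 77.4%. The last, from 9101978 to 9102089, was the least methylated in epithelial cells, with 6.68% and 18.4%. Its gain of 11.7 points was near the lowest, yet its fiber level was 275% of the epithelial level, the highest proportion in the gene. The exonic DMRs gained 16.2 points (from 50.2% to 66.4%, 8943434 to 8943696) and 22.0 points (from 39.5% to 61.5%, 8966143 to 8966775).

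The gains outside these groups covered the whole range of levels. Between the second group and the first loss, 3 gains went from 46.6% to 66.4% (8971308 to 8971610), from 22.6% to 52.9% (8975508 to 8975959) and from 8.37% to 19.9% (8977936 to 8978112). Between the first and the second loss stood 4 more, among them the DMR with the CLOCK site, with 24.4% in epithelial cells and 42.3% in fiber cells, and one from 9014757 to 9015016 that changed from 21.7% to 54.0%. Beyond the last loss 5 gains followed. Apart from the final DMR, they went from 13.3% to 34.4%, from 27.4% to 49.2%, from 42.4% to 73.4% and from 17.0% to 40.2%. The median change was 22.4 points over the 4 DMRs of the fourth stretch of the span and 22.3 over the 15 of the first.

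CpG islands or shores were overlapped by 8 of the 29 DMRs of MSI2, which is 27.6%, beside 51.1% of the DMRs of chromosome 19 and 47.9% of those on the 17 chromosomes (7 to 23) that carry this annotation. Those shares include DMRs outside introns, whereas all 29 of MSI2 are intronic. Over all chromosomes 18.1% of intron DMRs overlapped an island or shore, beside 24.9% of all DMRs. Chromosomes without the annotation lower both values. The share of intron DMRs on the annotated chromosomes was not computed, so the 27.6% is not shown to be low. All 8 DMRs of MSI2 at islands or shores lay in the 2 stretches on the CUEDC1 side. The 7 gains among them changed by a median of 18.6 points and the 19 other gains of MSI2 by 22.3 points. Over the gains of chromosome 19 the same order held, with 17.8 points at islands or shores and 23.7 elsewhere. Density in the 7 gains had a median of 13.9 listed CG sites per 100 bp, and in the 19 it was 11.5.

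The 3 losses of MSI2 were all intronic. The first, from 8985644 to 8985822, fell from 71.1% in epithelial to 55.6% in fiber cells. It overlapped a CpG island and was also annotated to the promoter of a microRNA gene, gga-mir-1585 (ENSGALG00000025538). The second, from 9026665 to 9026840, went from 41.7% to 22.3%, and the third, from 9043333 to 9043573, from 55.3% to 17.3%. This last change of -38.0 points was the largest in size of all 33. Epithelial levels of the 3 losses (41.7% to 71.1%) overlapped those of the RBM24 DMRs (46.6% to 78.0%). Both later losses stood next to each other, and apart from them the third stretch of the span held 1 gain.

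**Figure D3:**
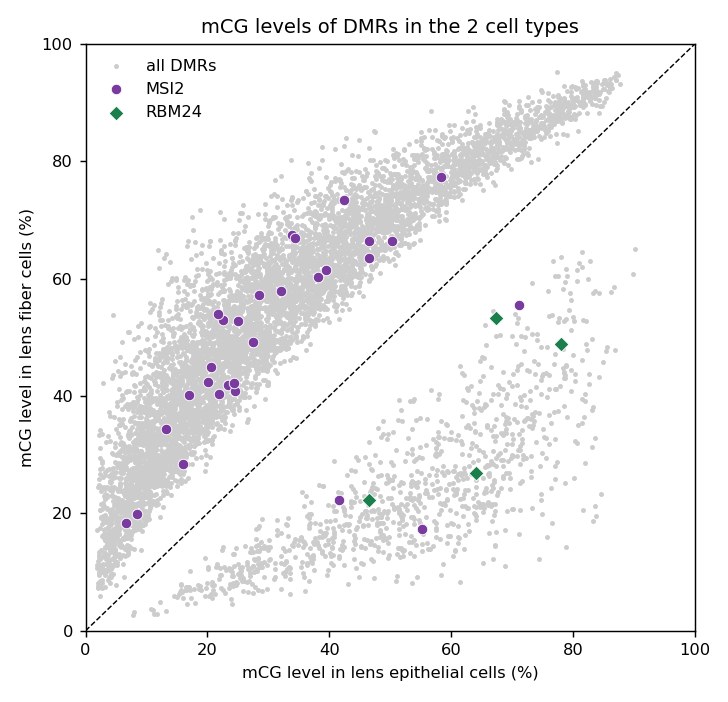
mCG level in epithelial cells (x axis, percent) against fiber cells (y axis, percent) for all 7621 DMRs (grey), those of MSI2 (circles) and those of RBM24 (diamonds). The dashed line marks equal levels. The 26 gains of MSI2 lie above it, and its 3 losses lie below with the 4 DMRs of RBM24.

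Side by side, the mean change was 17.4 points over the DMRs of MSI2 and -26.2 over those of RBM24. Epithelial levels ran from 6.68% to 58.3% in the 26 gains of MSI2 and from 46.6% to 78.0% in RBM24, so the ranges overlapped. Their medians were 24.8% and 65.7%. Over all DMRs the median epithelial level was 27.6% in gains and 54.3% in losses, an order that sorting DMRs by direction itself favours. In fiber cells the ranges overlapped as well: 12 of the 26 lay within the range of RBM24 (22.3% to 53.3%), 12 above and 2 below. The share of all gains in that range was not counted, but their median fiber level, 54.2%, lay just above it. Median length, which the choice of genes did not use, was 241 bp in MSI2, 248 bp in RBM24 and 236 bp over all DMRs. Median density, likewise not used, was 11.5 listed CG sites per 100 bp in MSI2, 9.34 in RBM24 and 10.3 over all.

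**Figure D4:**
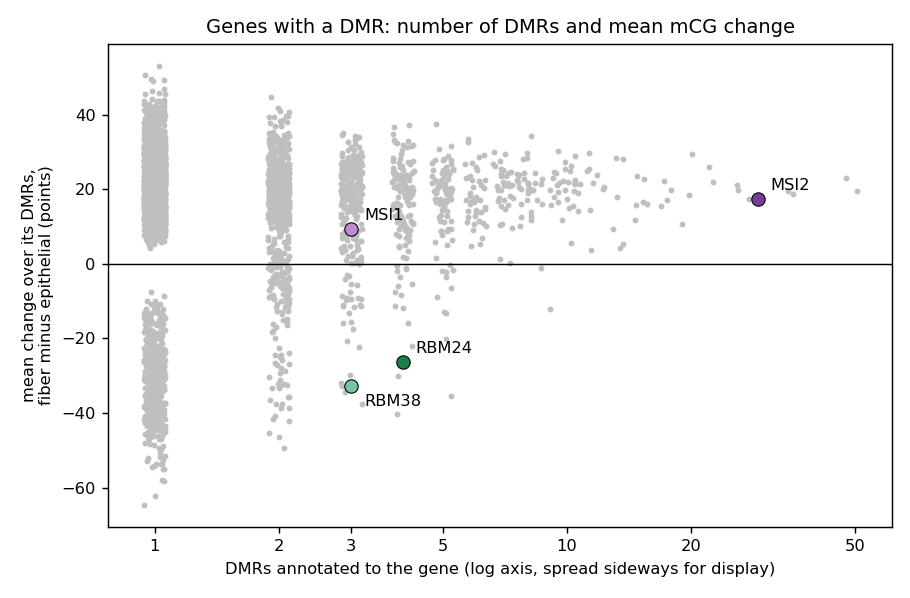
Number of DMRs per gene (x axis, log scale) against the mean change over its DMRs (y axis, percentage points) for 3888 genes. MSI2 lies at 29 DMRs and 17.4 points, RBM24 at 4 and -26.2, MSI1 at 3 and 9.45, and RBM38 at 3 and -32.9.

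The nearest relatives of both genes showed the same directions. MSI1 (ENSGALG00000007227), the other Musashi gene, had 3 gains on chromosome 15, from 9626633 to 9627806, all in introns at island shores. Its levels were far lower, 2.36%, 3.70% and 5.52% in epithelial and 7.67%, 15.8% and 16.4% in fiber cells. RBM38 (ENSGALG00000026081), whose protein resembles that of RBM24 and also regulates splicing and transcript stability, had 3 intronic losses on chromosome 20. The level went from 51.8% to 14.1% (11620229 to 11620331), from 61.0% to 24.2% (11620608 to 11620868) and from 49.4% to 25.2% (11626020 to 11626151). Genes with 3 or more DMRs numbered 692, of which 2.02% had losses alone and 68.1% gains alone. Another gene of this group, DAZAP1, had no DMR under that name.

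Other RNA-binding protein genes were examined as a list of 57, including these relatives, and 22 of them had a DMR. The share of all chicken genes with a DMR was not available. Counts of listed genes with a DMR, here and below, therefore have no background beside them. Gains alone were listed for 15 of the 22, losses alone for 6 and both for 1. Of their 40 DMRs 9 were losses (22.5%, beside 13.4% of all DMRs), and the median change was 19.2 points, beside 19.9. Among 24 splicing regulators 11 had a DMR, with 21 gains and 2 losses. CELF2 had 5 intronic gains from 21.6 to 34.7 points, and MBNL1 and MBNL3 had 4 gains each. The losses were in CELF1, from 37.1% to 11.6%, a gene whose loss causes cataract in mouse and zebrafish, and in RBFOX1. RBFOX1 had a loss from 75.2% to 34.4% and a gain from 11.3% to 50.3%, both intronic.

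Among 30 regulators of stability and translation 9 had a DMR, with 7 gains and 4 losses. The losses were single DMRs of CPEB3 (62.1% to 13.9%), CPEB4 (33.5% to 9.80%), ELAVL4 (46.9% to 15.3%) and PABPC1 (61.1% to 33.4%). CPEB proteins control translation through the poly(A) tail, and PABPC1 binds that tail. CPEB1 and CPEB2 of the same family each had a gain, of 14.1 and 23.1 points. ELAVL1, a stabiliser of transcripts, had 3 gains of 19.4 to 28.0 points. No DMR was listed under TDRD7, a gene of hereditary cataract, or CAPRIN2.

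**Figure D5:**
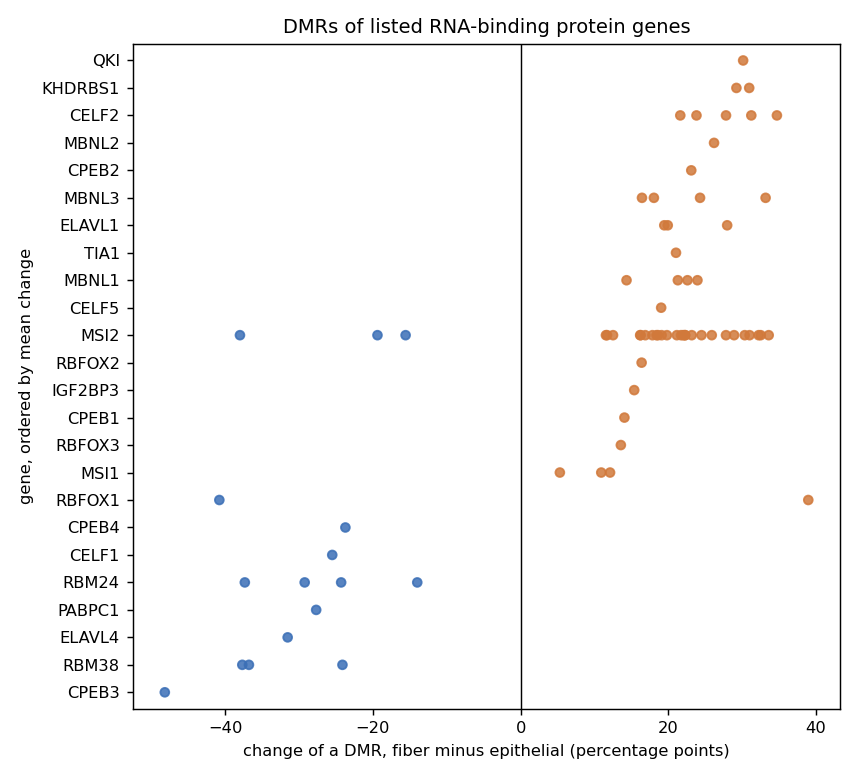
Change of each DMR in percentage points (x axis) for RNA-binding protein genes with a DMR (rows, ordered by mean change). Each point is 1 DMR, and MSI2 and RBM24 are shown with the 22 others. RBM24 and RBM38 have points below 0 only, and MSI1 above 0 only.

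Of 6 genes whose transcripts are known partners of Musashi or RBM24 proteins in other vertebrates, 2 had a DMR. SOX2 had 3 losses with changes of -9.60 to -8.28 points, at levels from 6.65% to 22.5%, and CRYAA, the gene of alpha A-crystallin, had 3 gains of 12.7 to 24.6 points. None was listed under NUMB, NUMBL, CDKN1A or MYOG. A gene with no listed DMR may still differ without meeting the authors' criteria for a DMR, or be listed under another name.

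The genes most like MSI2 were sought among 18 others with a symbol and at least 15 DMRs, by the share of gains and then the mean change. They were cNFI-A (31 gains of 34, mean 19.4 points), MYO9A (14 of 16, mean 16.0) and OPCML (14 of 16, mean 15.5). For RBM24, 11 other genes with a symbol had 3 to 6 DMRs that were all losses. The nearest in mean change were TMCC2 (3 losses, mean -29.7 points), SASH1 (4 losses, -29.9) and GLI2 (3 losses, -32.0). Each of these 3 means is more negative than that of RBM24 by 3.48 to 5.80 points.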

How the data were processed

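Bisulfite-treated DNA of 3 replicates of lens epithelial cells and 3 replicates of lens fiber cells was sequenced. Per the submitters' notes, bases were called with CASAVA, reads trimmed with Trimmomatic and aligned to galGal6 with Bismark. The authors called DMRs with DSS, which smooths levels over neighbouring CG sites, so close DMRs are not independent, and lists only regions past its threshold. The authors deposited mean mCG levels per cell type as a fraction, pooled over replicates, and an area statistic, a score that sums the test statistics of a DMR. Their column of differences was not used. Versions are not given in the sources used here. Coverage per DMR is not given in the table used here.

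The 13180 lines included 551 exact repeats and were joined to 7621 DMRs. Levels were expressed in percent and subtracted (fiber minus epithelial). Gene means were unweighted over distinct DMRs. Listed CG sites may include both strands, so densities serve only to compare DMRs. Island and shore annotation is present for chromosomes 7 to 23 only, so shares are compared within those, except where intron DMRs are set beside all DMRs. Members, gene lists and the rule for named genes (both genes, listed genes with a DMR, neighbouring DMRs and the 3 most similar genes) were chosen with earlier results of these data known. The list of transcript partners was drawn up with 1 further gene, which is not reported here. No test across samples could be made from the means used here, and joins were tested on simulated data. Python 3.11.15, pandas 2.3.3, NumPy 2.4.6, statsmodels 0.14.6 and matplotlib 3.10.9 were used.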

Additional observations from a re-analysis of the deposited data

How the results depend on the processing

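Over 6 alternative settings no value changed sign. For RBM24 no setting could change it, since all 4 of its DMRs are losses. MSI2 stayed mainly gains, the direction by which it was chosen. Of 38 recomputed values 26 stayed within a set tolerance. It was 1.5 times for counts, the 95% Wilson interval for the share and the median single-site error for means. These limits only mark how far a value moved. The interval takes DMRs as independent, which they are not, and the single-site error is not that of a mean. A minimum change of 20 points left 15 gains and 1 loss in MSI2 and moved the means to 22.6 points in MSI2 and -30.3 in RBM24, a difference of -52.9, since small changes are dropped by construction. Keeping the upper part of the area statistic, from its median upward, left 17 gains in MSI2 and 2 losses in RBM24. At least 20 listed CG sites left 1 loss in MSI2 and 2 in RBM24. Joining DMRs under 1 kb apart left 2 losses in RBM24. The mean of RBM24 was -30.3 points in introns alone and -21.5 when weighted by CG sites. No paired analysis was possible because the table holds means over replicates only. For the same reason no replicate could be left out, and no coverage minimum could be set. The levels of 4 DMRs carry every statement on RBM24.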

Other observations

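The surroundings of MSI2 were mostly gains, as was chromosome 19 as a whole, where 87.2% of DMRs were gains. Within 500 kb on either side of its DMRs 44 further DMRs were listed, 41 of them gains, with a median change of 17.4 points. The nearest on the low-coordinate side was a gain in CUEDC1, 40.7 kb away, from 64.5% in epithelial to 79.3% in fiber cells. On the other side it was an intronic gain in AKAP1, 38.5 kb away, from 22.8% to 62.2%. AKAP1 codes for a protein that anchors protein kinase A to mitochondria and binds RNA itself. The 3 losses in this window lay on the CUEDC1 side, 1 of them in HEATR6 (66.8% to 30.7%) and 2 at island shores with no gene. Within MSI2 no DMR of another gene was interspersed, apart from the annotation of its first loss to the microRNA gene.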
